A study of Mus musculus with 12 samples.

Results

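The cytosolic ribosomal proteins are the protein subunits of the ribosome that translates nuclear-encoded messages. They were taken as every non-control 60-base oligonucleotide (60-mer) on the array with a file symbol of the Rpl, Rps or Rplp type, or Rpsa. A symbol of that type has a number after Rpl, Rps or Rplp and then at most 1 letter. The rule leaves out the Rps6k kinases and the mitochondrial Mrp genes. This gave 78 genes, measured by 130 different 60-mers in 139 spots, of 27671 genes on the array. Of these, 76 genes passed a filter on low signal (at least 2 mice had to have the 60-mer well above background in 0.5 or more of their arrays), among 15826 genes tested in all. The muscle-type paralog Rpl3l was not well above background in any mouse and Rpl4 was so in 1 mouse, and neither was tested.

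The study compared laser-captured Leydig cells of adult male C57BL/6J mice gavaged for 21 days with 200 mg/kg/day of the plasticiser di-(2-ethylhexyl)-phthalate (DEHP) in corn oil, or with corn oil alone (vehicle); the mice were 21 weeks old at the end. The arrays used here hold 2 DEHP mice (numbers 1 and 4) and 3 vehicle mice (numbers 1, 2 and 4). Each DEHP mouse was set against each vehicle mouse on 2 two-colour arrays with the dyes swapped, which makes 12 arrays on 3 slides. RNA was amplified in 2 rounds, and repeated arrays of a mouse are technical, so the mouse was the replicate. Each value below is on the log2 scale, set against the average over the 5 mice and estimated from all 12 arrays, so values of different genes are not levels that can be ranked. In bulk captured cells, fewer cells of a type and less RNA per cell cannot be told apart.

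The ribosome joins a small subunit, built of Rps proteins and 18S ribosomal RNA, with a large subunit, built of Rpl proteins and the longer ribosomal RNAs. Their mRNAs are short, abundant and, in most cells, made in balance, and many begin with a run of pyrimidines at the cap (the TOP tract) through which mTOR sets their translation. Some X-linked subunit genes have autosomal relatives used in the germ line, where the X chromosome is silenced during meiosis. Leydig cells, which lie between the seminiferous tubules, make testosterone.

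Between 45.4% and 54.4% of the spots were well above background in the red channel of an array, and between 35.5% and 46.1% in the green. No member was saturated, and 73 of the 76 were well above background on every array of every mouse; the exceptions were Rplp0, Rps9 and Rpsa. For 7 of the 76, among them Rpl10, Rpl21, Rplp0, Rps19, Rps28 and Rps3a, the 60-mer used carries an accession that was not matched to the gene. All 11 Leydig marker genes (such as Star and Cyp11a1) passed the filter, and so did all 16 spermatid and all 11 macrophage markers. Summarised by their median, the Leydig markers lay at 0.65 for DEHP mouse 1, -0.72 for DEHP mouse 4, -0.42 in vehicle mouse 1, 0.18 in vehicle mouse 2 and 0.29 in vehicle mouse 4. The spermatid markers were at -0.0046, 0.73, 0.21, -0.56 and -0.37 in the same order. DEHP mouse 4 and vehicle mouse 1 were low in Leydig markers and high in spermatid markers, so mice of the same group differed in both.

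Some members were measured at more than one place on the mRNA. For 4 genes with the widest gap between a 60-mer near the 3′ end and one nearer the 5′ end, the last 30 of the 60 bases are given, with the mm7 position of the whole 60-mer per the array annotation (a position longer than 60 bases spans a gap in the genome). Capitals mark the polyadenylation hexamer AATAAA.
Rpl7 near the 3′ end (chr1:16290456-16290515, minus strand): atgaagaaaaagacaactcactttgtagaa
Rpl7 nearer the 5′ end (chr1:16292191-16292250, minus strand): ttgaaggtgaagcgcctgaggaagaagttt
Rps18 near the 3′ end (chr17:32030069-32030128, minus strand): ctgtgggtgtatccaagaagaaatgagtct
Rps18 nearer the 5′ end (chr17:32030556-32030615, minus strand): aaagcagacatcgacctcaccaagagggct
Rps3 near the 3′ end (chr7:95509706-95510085, minus strand): gctgcatctggaggcgatttAATAAAataa
Rps3 nearer the 5′ end (chr7:95513146-95513420, minus strand): ggacagaaatcattattttagccaccagga
Rps2 near the 3′ end (chr17:22904213-22904272, plus strand): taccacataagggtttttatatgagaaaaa
Rps2 nearer the 5′ end (chr17:22903034-22903093, plus strand): agcagactcgggctggccagcagaccagat

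The first comparison asked whether ribosomal protein mRNAs differed between DEHP and vehicle mice. None of the 76 genes differed between the groups (limma on the 5 mouse values, Benjamini-Hochberg adjusted p = 0.99999 for the lowest), against 0% of all 15826 genes called. At an unadjusted p under 0.05 the count was also 0 of 76, against 0.859% of all genes. The differences leaned low without passing any test: 52 genes lay below 0, or 68.4%, against 51.6% of all genes, and 24 lay above 0, or 31.6%, against 48.4%. A lean of this kind was not seen in the members alone: 56 of 73 mitochondrial ribosomal proteins (76.7%, median -0.13) and 9 of 11 Leydig markers (81.8%, median -0.17) also lay below 0. The median of the members was -0.17, against -0.01 for all genes tested. The median standard error of a member's difference was 0.30, and the 95% interval of each of the 76 crossed 0.

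The lean turned with DEHP mouse 4. Without it, in a fit of 1 DEHP mouse whose spread is taken from the vehicle mice, the member median was 0.13 and 14 genes lay below 0. Without DEHP mouse 1 it was -0.40, with 64 genes below 0, and without vehicle mouse 4 it was -0.02, with 40 genes below 0. Within slide 3, which holds vehicle mouse 4 alone as control, the median was -0.45 with 65 genes below 0; within slides 1 and 2, where dye and group cannot be told apart on a slide, it was -0.02 and -0.06. With the scanner's own processed signals 43 genes lay below 0 and 33 above, a median of -0.10. The median was -0.06 with median centring and -0.04 over the 49 members in the deposited value table.

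**Figure D1:**
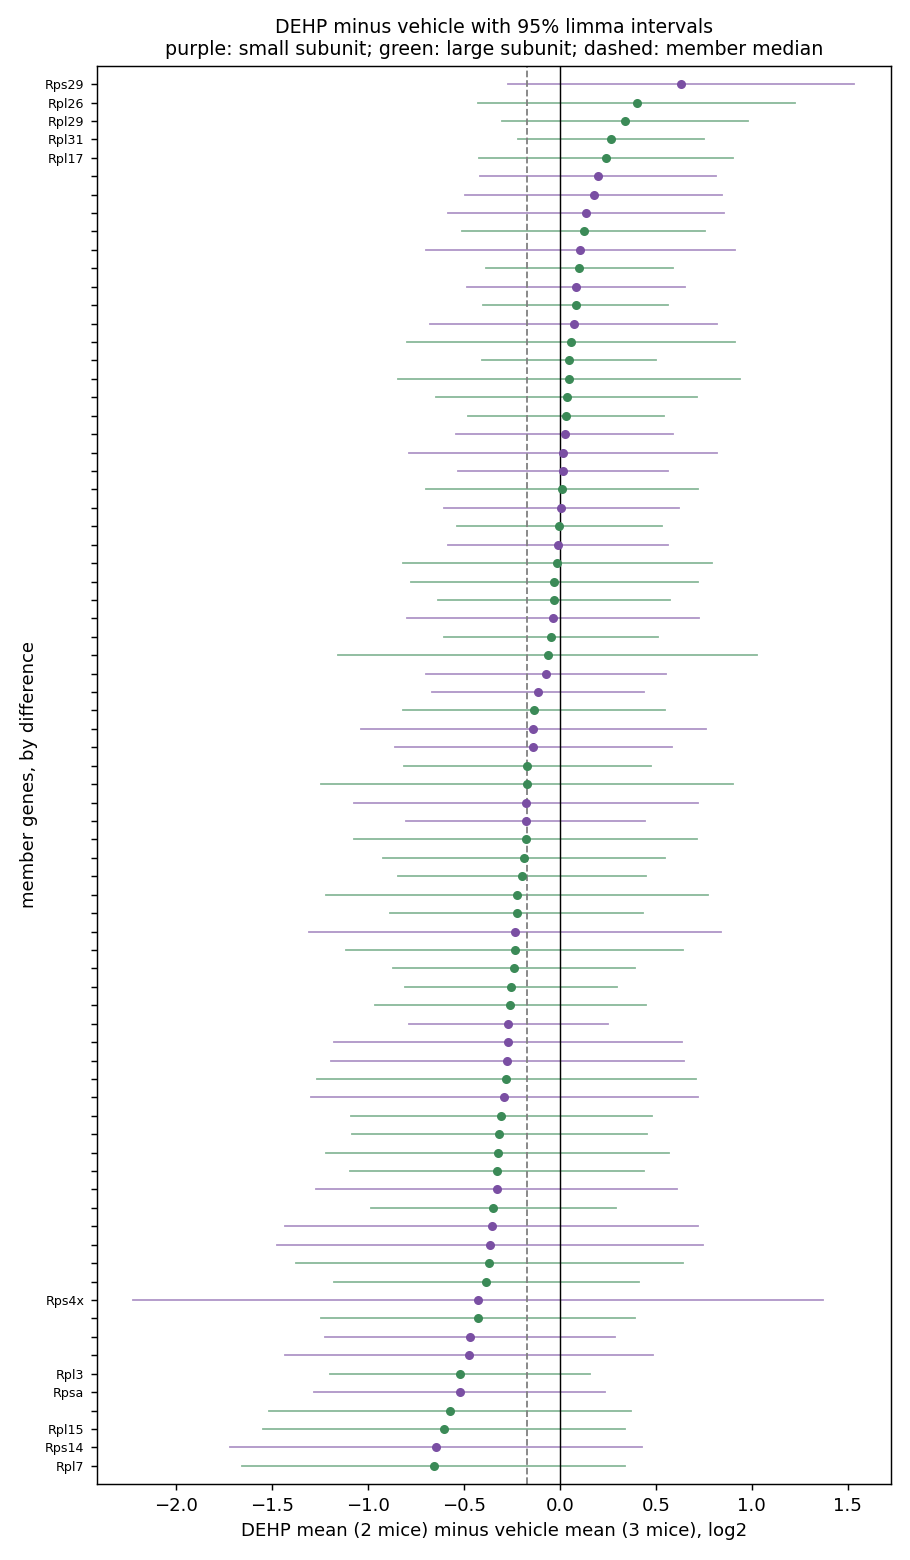
DEHP minus vehicle difference (log2, x axis) of each of the 76 member genes, ordered from the highest at the top to the lowest, with its 95% limma interval; purple marks small-subunit and green large-subunit genes, the dashed line marks the member median of -0.17, and 11 members that the text describes are named. The interval of each gene crosses 0, from Rps29 at 0.63 to Rpl7 at -0.66.

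Among the lowest differences were those of Rpl7, Rps14, Rpl15 and Rpsa. Rpl7, a large-subunit protein, gave 0.14 (DEHP mouse 1) and -0.93 (DEHP mouse 4) against -0.21, 0.48 and 0.51 for vehicle mice 1, 2 and 4, a difference of -0.66 (SE 0.40, 95% interval -1.65 to 0.34). DEHP mouse 4 was the lowest and vehicle mouse 1 the next lowest, and the groups overlapped. Rps14, which lies near the mRNA exit of the small subunit, was at 0.21 and -0.98 (DEHP mice 1 and 4) against 0.35, -0.20 and 0.63 for vehicle mice 1, 2 and 4, a difference of -0.64. Rpl15 had a difference of -0.60 and Rpsa, the laminin-receptor-like protein of the small subunit, of -0.52. In each of these, DEHP mouse 4 was the lowest of the 5 mice.

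The highest differences belonged to Rps29, Rpl26, Rpl29, Rpl31 and Rpl17. Rps29, a small zinc-binding protein of the small subunit, was at -0.18 and 0.94 (DEHP mice 1 and 4) against -0.45, -0.13 and -0.18 for vehicle mice 1, 2 and 4, a difference of 0.63 (SE 0.36, 95% interval -0.27 to 1.54). DEHP mouse 4 alone was high, and DEHP mouse 1 lay within the vehicle range. The differences were 0.40 for Rpl26, which sits beside the peptide exit tunnel, 0.34 for Rpl29, 0.27 for Rpl31 and 0.24 for Rpl17.

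In 2 genes the DEHP and vehicle mice did not overlap, 1 in each direction. By the oligonucleotide that stood for the gene, Rpl31 was at 0.15 and 0.17 (DEHP mice) against -0.22, -0.16 and 0.06 for vehicle mice 1, 2 and 4. Both DEHP mice lay above all vehicle mice by that oligonucleotide alone. The gene's other oligonucleotide that passed the filter gave 0.16 and 4.0e-05 (DEHP mice) against 0.22, -0.59 and 0.21 in the vehicle mice. There the groups overlapped, and both DEHP mice lay below vehicle mice 1 and 4. Rpl3, a protein of the peptidyl transferase centre whose relative Rpl3l is muscle-specific, was at -0.15 and -0.48 (DEHP mice) against 0.02, -0.0015 and 0.60 in the vehicle mice, so both DEHP mice lay below. The 1 gene above is 1.32% of the members, against 3.95% of all genes, and the 1 below is 1.32%, against 5.22%. The adjusted p of both was 0.99999 (limma).

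The members varied between mice of the same group. Their median came to 0.18 for DEHP mouse 1, -0.34 for DEHP mouse 4, -0.07 in vehicle mouse 1, -0.06 in vehicle mouse 2 and 0.30 in vehicle mouse 4. In DEHP mouse 1 and in vehicle mouse 4, 68 of the 76 genes lay above 0 in each; in DEHP mouse 4 only 9 did. DEHP mouse 4 was the lowest of the 5 mice for 44 members, or 57.9%, against 29.9% of all genes, and vehicle mouse 4 was the highest for 47, or 61.8%, against 19.7%. The small subunit (32 genes) and the large subunit with its stalk (44 genes) lay close together in DEHP mouse 4, with medians of -0.33 and -0.37, and in vehicle mouse 4, with 0.33 and 0.28. They lay further apart in vehicle mouse 2, at -0.18 and -0.02.

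**Figure D2:**
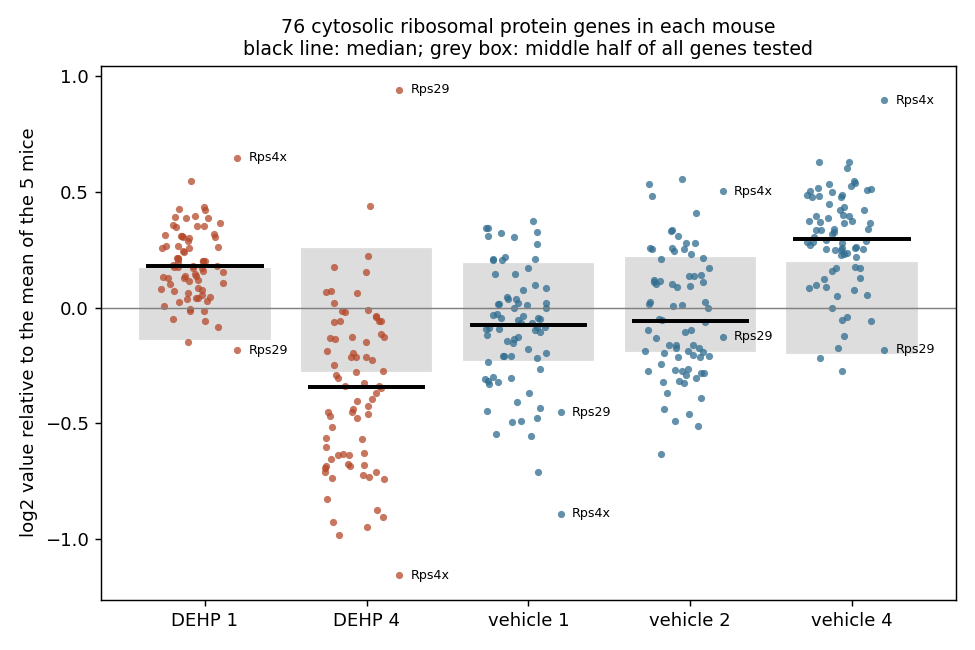
Value of each of the 76 member genes (points) in each of the 5 mice, in log2 relative to the mean of the 5 mice; the black line is the member median and the grey box spans the lower to the upper quartile of all genes tested. The median lies lowest in DEHP mouse 4 (-0.34) and highest in vehicle mouse 4 (0.30), while Rps4x and Rps29, named beside their points, depart from the rest.

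Mice within a group could also be set against each other, since each extract was hybridised repeatedly. Such tests compare extracts, not conditions, and their p-values cover array error alone. Between the DEHP mice, 65 of 76 members were lower in mouse 4 than in mouse 1 (85.5%, against 41.1% of all genes) and 4 were higher (5.26%, against 36.3%), with a member median of -0.51 (limma on 12 arrays, adjusted p under 0.05). Among those higher were Rps29, Rpl26 and Rpl13a. The direction depended on the correction for signal intensity: with median centring in place of loess, 5 members were lower and 49 higher, and the member median of 0.33 lay beside an all-gene median of 0.30. The all-gene median was -0.05 with loess. With the scanner's processed signals, which were median centred, 40 were lower and 5 higher, at a median of -0.45 beside 0.06 for all genes. The Leydig markers had a median of -1.29 in the same contrast (9 of 11 lower, 0 higher), the macrophage markers of -1.40 (8 of 11 lower, 0 higher) and the myoid markers of -0.85 (6 of 6 lower). The spermatid markers had a median of 0.83 (15 of 16 higher, 0 lower). The part of these cell types in the members' values was not tested.

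**Figure D3:**
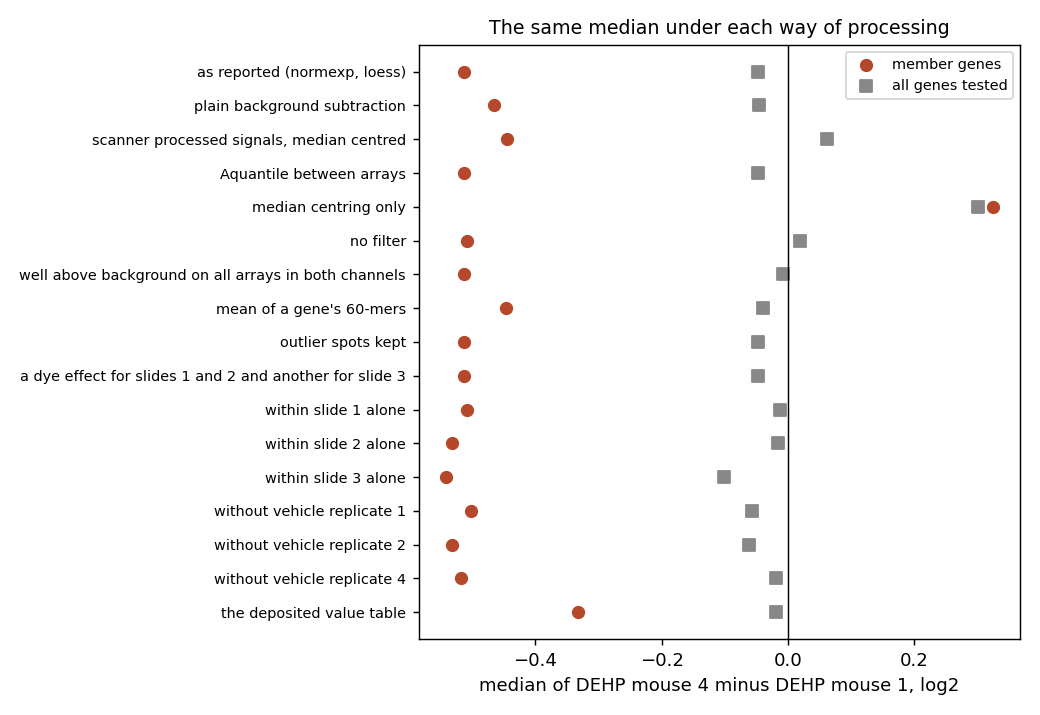
Median of DEHP mouse 4 minus DEHP mouse 1 (log2, x axis) over the member genes (circles) and over all genes tested (squares), under each way of processing the arrays (y axis). The member median stays between -0.54 and -0.33 except with median centring only, where it is 0.33 beside 0.30 for all genes.

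Single members that kept their direction under median centring include the extremes. Rps4x, the X-linked form of a small-subunit protein, was at 0.65 and -1.16 (DEHP mice 1 and 4) against -0.89, 0.50 and 0.90 for vehicle mice 1, 2 and 4, the widest range of any member. Its difference between the DEHP mice was -1.80 (SE 0.06, limma adjusted p = 3.3e-10), and between -1.89 and -0.64 over 15 alternatives. DEHP mouse 4 and vehicle mouse 1 were low, and the groups overlapped. Rps19, mutated in Diamond-Blackfan anaemia, differed by -1.37 between the DEHP mice (adjusted p = 1.3e-09, limma) and was the next lowest. Rps29 differed by 1.12 (SE 0.06, adjusted p = 2.3e-08, limma), between 0.96 and 2.30 over 15 alternatives, and Rpl26 by 0.40.

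Among the vehicle mice, mouse 1 was set against the mean of mice 2 and 4. Of the 76 members 43 were lower in mouse 1 (56.6%, against 38.2% of all genes) and 16 higher (21.1%, against 33.9%), with a median of -0.21 (limma on 12 arrays). With median centring 17 were lower and 16 higher, at a median of -0.04. The lowest were Rps4x at -1.59, Rpl39 at -1.10 and Rps2 at -0.95, and the highest Rpl26 at 0.73, Rpl41, the shortest ribosomal protein, at 0.54 and Rps28 at 0.46. Rps4x and Rpl39 kept their direction under each of their alternatives, between -1.63 and -1.24 and between -1.11 and -0.94; Rps2 did so except in the deposited value table, at 0.31, which holds another of its 60-mers. Vehicle mouse 2 lay below vehicle mouse 4 for 54 members (71.1%, against 28.3% of all genes) and above it for 3 (3.95%, against 29.1%), at a median of -0.31; with median centring 72 members lay below and 0 above, at a median of -0.73 beside -0.19 for all genes. Vehicle mouse 4 was hybridised on slide 3 alone and the other vehicle mice on slides 1 and 2, so mouse and slide cannot be told apart there. In the same contrast 9 of 11 macrophage markers were lower and 0 higher, 6 of 11 Leydig markers lower and 2 higher, and 6 of 6 myoid markers higher; their part was not tested. The lowest members were Rpl5 at -1.04, Rpl13a at -0.99 and Rps3a at -0.84, and the highest Rpl29 at 0.45, Rpsa at 0.40, which did not pass, and Rpl21 at 0.23. Other 60-mers of Rpl21 and Rpl29 gave other values: the Rpl21 60-mer with the gene's RefSeq accession was at -0.34 in vehicle mouse 2 and 0.30 in vehicle mouse 4. The 3 other Rpl29 60-mers were at -0.06, -0.12 and -0.21 in vehicle mouse 2 and at -0.0099, -0.13 and -0.0038 in vehicle mouse 4.

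Of the 4 members encoded on the X chromosome, Rps4x, Rpl39 and Rpl10 were lower in vehicle mouse 1 than in vehicle mice 2 and 4, and Rpl36a did not pass. That is 75%, against 55.6% of the members not on the X and 38.2% of all genes. The median difference between vehicle mouse 1 and vehicle mice 2 and 4 was -0.93, against -0.20 for the 72 members not on the X, and between the DEHP mice -0.89 against -0.49. With median centring the values for the X-linked genes were -0.90 and -0.06, beside -0.04 and 0.33 for all members. Rpl39, which lines the peptide exit tunnel, was at 0.32 and -0.39 (DEHP mice 1 and 4) against -0.71, 0.24 and 0.54 for vehicle mice 1, 2 and 4. Vehicle mouse 1 was the lowest, and the groups overlapped. Rpl10, which completes the large subunit at the P site, was at 0.40 and -0.60 and at -0.43, 0.01 and 0.63 in the same order, by a 60-mer whose accession was not matched to the gene. The 60-mer with its RefSeq accession was at 0.29 and -0.40 and at -0.28, -0.11 and 0.51, so the difference between vehicle mouse 1 and vehicle mice 2 and 4 was -0.48 in place of -0.75. Rpl36a was lower in DEHP mouse 4 than in DEHP mouse 1 (-0.77), but its brightest 60-mer did not pass between the vehicle mice (-0.11), while its other 60-mers gave -0.78 and -0.92.

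For 2 of these genes a germ-line relative, filed under another name and so outside the rule, was tested. Both relatives were higher in vehicle mouse 1, as were 33.9% of all genes. Rpl39l, the autosomal, testis-rich relative of Rpl39, was at -0.06 and 0.07 (DEHP mice 1 and 4) against 0.73, -0.51 and -0.22 for vehicle mice 1, 2 and 4. It was higher in vehicle mouse 1 by 1.09 (adjusted p = 5.0e-09, limma on 12 arrays). Rps4l, the relative of Rps4x, was higher there by 0.37 (adjusted p = 1.8e-06, limma). The spermatid markers were higher in vehicle mouse 1 than in mice 2 and 4 for 13 of 16 genes and lower for 0, with a median of 0.74. The Leydig markers were lower for 9 of 11 and higher for 0, with a median of -0.86. Of all genes, 33.9% were higher and 38.2% lower. The macrophage markers were lower for 8 of 11, the endothelial for 6 of 6 and the myoid for 4 of 6, with 0 higher in each. Their medians were -0.83, -0.91 and -1.09. Of the spermatocyte markers 7 of 11 were higher and 0 lower. The part of these cell types in the values of these subunit genes was not tested.

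Other gene lists were set beside the share of all genes called between the DEHP mice, 41.1% lower and 36.3% higher. Of 30 TOP-type translation genes outside the rule, such as elongation and initiation factors, 12 were lower (40%) and 11 higher (36.7%) in DEHP mouse 4 than in DEHP mouse 1, with a median of 0.03. Of 31 ribosome biogenesis factors tested of 35, which assemble the subunits in the nucleolus, 10 were lower (32.3%) and 12 higher (38.7%), with a median of 0.02. Both lists lay near the share of all genes. Among 73 mitochondrial ribosomal proteins tested of 75, 45 were lower (61.6%) and 12 higher (16.4%), with a median of -0.21, and among 37 proteasome subunits tested of 38, 21 were lower (56.8%) and 7 higher (18.9%), with a median of -0.22. With median centring the medians were 0.85, 0.38, 0.36 and 0.39 in that order, beside 0.33 for the members. Rack1 and Fau, which are ribosomal subunits under other symbols, differed by -1.71 and -1.30 between the DEHP mice with loess. Their values with median centring are not given here. Arbp, an older symbol of Rplp0 described below, differed less.

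**Figure D4:**
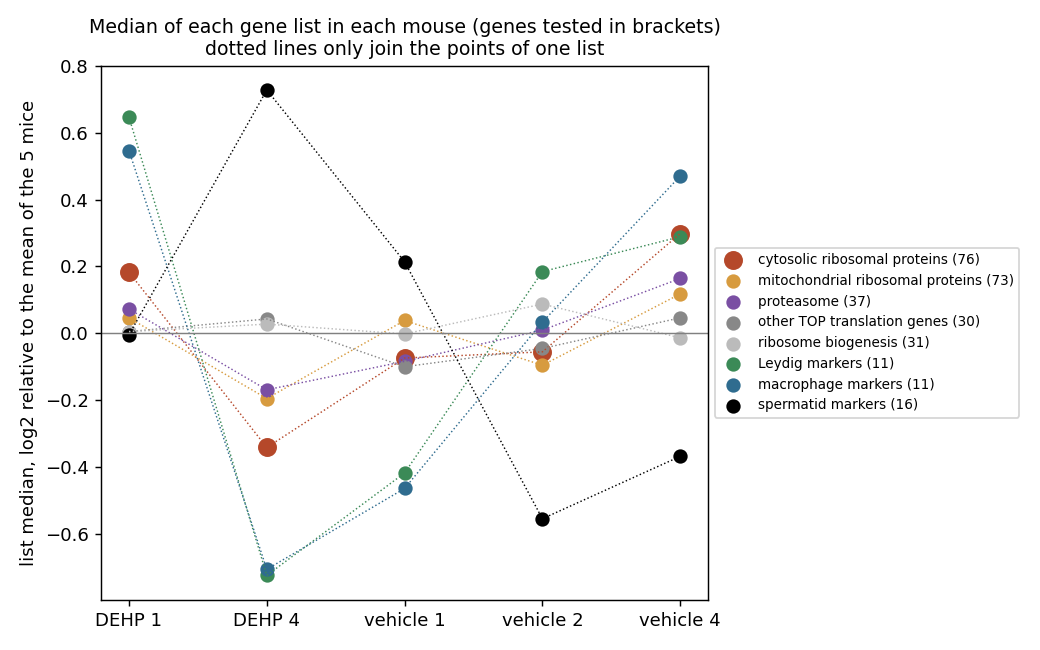
Median of each gene list (points, with the number of genes tested in the key) in each of the 5 mice, in log2 relative to the mean of the 5 mice; dotted lines join the points of one list and carry no order. The Leydig markers run from 0.65 in DEHP mouse 1 to -0.72 in DEHP mouse 4, the members from 0.18 to -0.34, and the spermatid markers lie highest in DEHP mouse 4 at 0.73.

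Within DEHP against vehicle, none of these lists held a gene that passed the test. The 3 genes of lowest p were Eif3a, the largest subunit of initiation factor 3, with a difference of 0.82 (SE 0.19), and the sperm chromatin proteins Prm1 and Tnp1, with 1.00 (SE 0.29) and 1.15 (SE 0.38); the adjusted p of each was 0.99999 (limma). Both DEHP mice lay above all vehicle mice in each, Eif3a at 0.47 and 0.51 against -0.41, -0.21 and -0.37. The 3 genes were picked by p in this same comparison, so that lack of overlap is no separate result. Among all genes, 3.95% lay above without overlap. Below 0 lay all 6 myoid markers, 10 of 11 Sertoli markers and 9 of 11 Leydig markers, against 51.6% of all genes, and above 0 lay 15 of 16 spermatid markers, against 48.4%; none passed.

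The members were also grouped by role. The acidic stalk proteins Rplp1 and Rplp2, which recruit elongation factors, were lower in DEHP mouse 4 than in DEHP mouse 1 (-0.89 and -1.12), and lower in vehicle mouse 1 than in mice 2 and 4 (-0.35 and -0.61). The 60-mer that the files call Rplp0, the stalk's anchor, differed by 0.09 in both, passing neither, and its share of arrays well above background was 0.583 for DEHP mice and 0.625 for vehicle mice. Its accession was not matched to that gene, while a 60-mer filed as Arbp, an older symbol of Rplp0, differed by -0.30 and -0.48. Rpl5, Rpl11 and Rpl23, which bind the p53 regulator MDM2 when free of the ribosome, differed by -0.48, -0.92 and -0.63 between the DEHP mice and by -0.15, -0.59 and -0.27 in the vehicle comparison, where Rpl5 did not pass. These directions between the DEHP mice are those with loess and turned with median centring, for example to 0.40 for Rplp1 and 0.34 for Rpl5. The all-gene median was then 0.30, and Rplp2 at 0.19 lay below it.

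Of 13 members mutated in Diamond-Blackfan anaemia, a failure of red-cell production, 9 were lower (69.2%, against 41.1% of all genes) and 2 higher (15.4%, against 36.3%) in DEHP mouse 4 than in DEHP mouse 1. In vehicle mouse 1, 4 were lower and 4 higher, 30.8% each, near the 38.2% and 33.9% of all genes. They ranged between the DEHP mice from -1.37 for Rps19 and -1.09 for Rpl15 to 1.12 for Rps29. Rps24 differed by -0.74, Rps10 by -0.44, Rps26 by -0.22, Rpl35a by -0.20 and Rps28 by -0.12, while Rps7 at -0.04 did not pass. Members of this disease group lay at both ends of the range. With median centring Rps19 stayed lower at -0.44, while Rpl15 at 0.071, Rps24 at 0.26, Rps10 at 0.11, Rps26 at 0.41, Rpl35a at 0.89 and Rps28 at 0.85 lay above 0. The all-gene median was then 0.30, and Rpl15, Rps24 and Rps10 lay below it.

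Among other members with roles outside the ribosome or in its control, Rps6, the target of S6 kinase, differed by -0.51 between the DEHP mice and 0.06 in the vehicle comparison, where it did not pass. Rps3, at the mRNA entry and also a DNA repair protein, differed by -1.13 and -0.64, and Rpsa by -0.64 and -0.45. Rps27a, a ubiquitin fusion, differed by -0.92 and -0.58, Rps27 by -0.94 and -0.61 and its p53-regulated relative Rps27l by -1.18 and -0.26. Rpl38, which aids translation of Hox mRNAs, differed by -0.38 and -0.48, and Rpl13a, of the interferon-gated GAIT complex, by 0.15 and 0.06, the last not past the test. Rpl22, which also binds the Epstein-Barr virus RNA EBER1, differed by -0.91 and 0.16, but its other 60-mer gave -1.07 in the vehicle comparison, the mean of both -0.46 and the deposited value table -1.20. The directions between the DEHP mice are those with loess. With median centring, Rps3 at 0.059, Rps27 at 0.35, Rps27a at 0.31 and Rpl38 at 0.85 turned above 0. The all-gene median was then 0.30, and Rps3 still lay below it. Rpsa and Rpl13a kept their directions, and Rps6, Rps27l and Rpl22 stayed below 0 without passing.

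Of the members, 31 were measured by 2 or more 60-mers that passed the filter, and these did not always give the same value. In 4 of the 31 genes the DEHP minus vehicle differences of the 60-mers lay over 0.5 apart. They ran from -0.66 to -0.0014 for Rpl7, from -0.29 to 0.34 for Rps3, from -0.33 to 0.22 for Rps18 and from 0.0081 to 0.51 for Rps28. In Rps28 the 60-mer that stood apart lies upstream on the minus strand (chr17:31897157-31897216), and it was at -0.14 and 0.75 (DEHP mice 1 and 4) against 0.11, -0.58 and -0.13 for vehicle mice 1, 2 and 4. It is shown here, by its last 30 bases, beside that of the 60-mer downstream (chr17:31897015-31897154) and that of Rps29, for which DEHP mouse 4 was also the highest.
Rps28 upstream: cgagagggtgacgtgctcaccctattggag
Rps28 downstream: ttgcagctgggttctggatatccactactt
Rps29 (chr12:67099313-67100211, minus strand): gcgaaggacataggcttcattaagttggac

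In 21 members a pair of 60-mers with RefSeq accessions, for Rps3a not matched to that symbol, lay at least 100 bases apart on the genome. The one near the 3′ end was more often the lower in DEHP mouse 4. The median difference between the DEHP mice was -0.64 for the 3′ 60-mers and -0.11 for the 5′ 60-mers, and 16 of the 21 were called lower at the 3′ end against 10 at the 5′ end, or 76.2% and 47.6%. Among the pairs of 2426 other genes the shares were 44.2% and 24.3%, and over all single 60-mers, paired or not, 38.6% were called lower. In the 4 genes whose sequences are given above, the 3′ and 5′ values were -1.06 and -0.01 for Rpl7, -1.02 and 0.10 for Rps18, -1.13 and -0.04 for Rps3 and -1.04 and 0.05 for Rps2. For the 5′ 60-mer of Rpl7 the share of arrays well above background was 0.25 for DEHP mice and 0.583 for vehicle mice, so its value says little of that end. The 3′ value was the lower in 15 of the 21, or 71.4%, near the 66.4% of the other genes, with the widest reversals in Rpl29 and Rps21.

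The gap between the ends was also seen outside the members. For the members, the 3′ value minus the 5′ value had a median of 0.09 in DEHP mouse 1, -0.28 in DEHP mouse 4, -0.15 in vehicle mouse 1, 0.34 in vehicle mouse 2 and 0.15 in vehicle mouse 4. For 2426 pairs of other genes the medians were 0.06, -0.18, -0.14, 0.16 and 0.12 in that order, and for 21 pairs of mitochondrial ribosomal proteins 0.08, -0.34, -0.21, 0.13 and 0.17. DEHP mouse 4 and vehicle mouse 1 were the low ones in each set. With median centring the member medians between the DEHP mice were 0.25 at the 3′ end and 0.37 at the 5′ end, and the 3′ value was the lower in 12 of 21. The part of this gap in the differences between mice above was not tested.

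**Figure D5:**
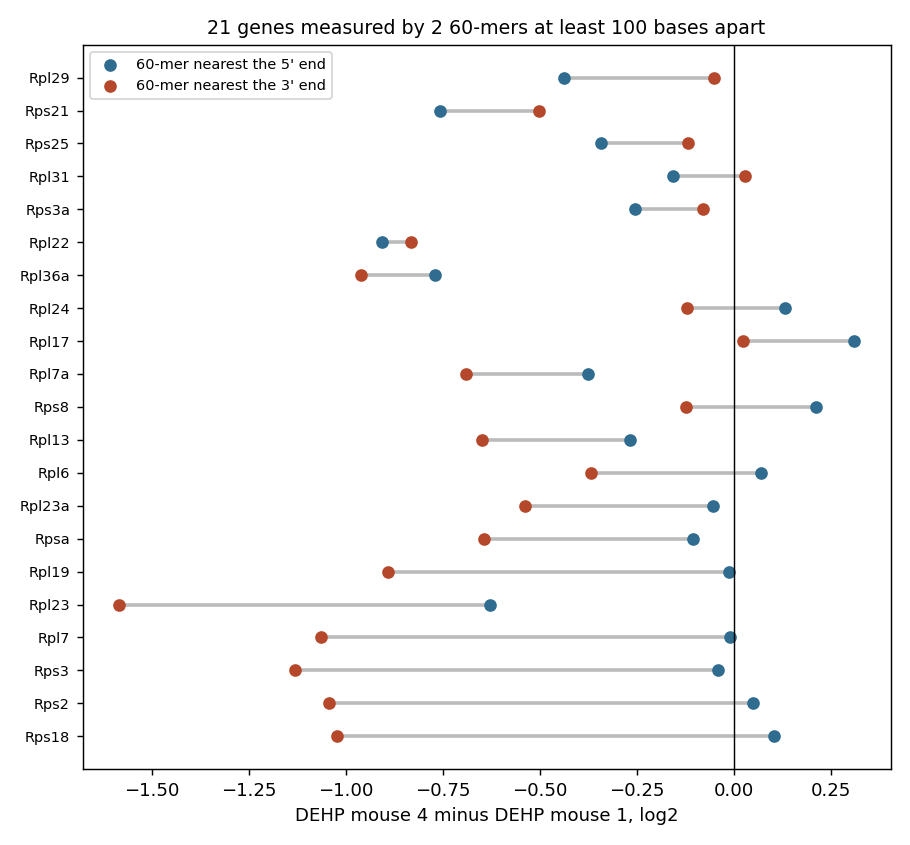
Difference between DEHP mouse 4 and DEHP mouse 1 (log2, x axis) for the 21 member genes (y axis) measured by 2 60-mers at least 100 bases apart; red marks the 60-mer nearest the 3′ end, blue the one nearest the 5′ end, and a grey bar joins them. The red point lies to the left in 15 of 21 genes, with medians of -0.64 and -0.11.

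Of the 115 member 60-mers that passed, 16 held the hexamer AATAAA (13.9%, against 5.70% of all 60-mers that passed). Their differences between the DEHP mice ran from -1.13 to -0.08 with a median of -0.85, and those of the 99 without it from -1.80 to 1.12 with a median of -0.34. These values are with loess, and no such median was computed for the 1208 60-mers of all genes with the hexamer. Whether this gap is particular to the members was not tested. GC content of the member 60-mers ran from 28.3% to 75%, with a median of 45%. A run of 30 or more bases was shared with a 60-mer filed under another name for 2 members, Rpl17 and Rpl36.

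The members' promoters, where RefSeq's promoter table (GRCm38.p6) holds them, were searched for features that the array values did not use. The table gave 68 windows of 57 member genes, each around an annotated start. A run of 8 or more C or T within 10 bases of the start was found in 27.9% of these windows, against 7.43% of all 32851 windows, and C followed by 4 C or T at the start itself in 19.1%, against 2.51%. The letters CCGGAAG, searched on both strands as the core of ETS-family sites, were in 35.3% against 8.86%, and AAGATGGCG, part of a YY1 site, in 7.35% against 1.40%. By gene, these 4 features were found in 19, 13, 23 and 3 of the 57 member genes, in that order. Overlapping windows of Rpl35a count AAGATGGCG more than once. TATAAA from 40 to 11 bases before the start was in 0 of 68 windows and in 2.08% of all. A match is a description of letters and not a site. The stretch from 40 bases before to 20 bases after the start is printed for 3 members that hold the run and were described above, with the run in capitals.
Rps18 (chr17:33955646-33955705, minus strand): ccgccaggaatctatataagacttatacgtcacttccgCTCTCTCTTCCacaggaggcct
Rps6 (chr4:86857348-86857407, minus strand): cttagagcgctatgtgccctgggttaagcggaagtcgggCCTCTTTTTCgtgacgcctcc
Rpl13a (chr7:45128726-45128785, minus strand): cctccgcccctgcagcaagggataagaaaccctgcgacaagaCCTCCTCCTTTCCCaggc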

How the data were processed

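Arrays were two-colour Agilent whole mouse genome arrays, scanned with Feature Extraction 9.5.1.1 and annotated on mm7, per the file headers. The deposited files give spot intensity (mean signal and local background) per channel, processed intensities, a log10 ratio of red over green, and flags of 0 or 1. The deposited value table holds ratios on a scale close to log2, matched to spots by their order in the files (correlation with the scanner ratio between 0.915 and 0.993 in size); its ratios run DEHP over vehicle, its column medians lie between -0.057 and 0.004, and its normalization is not given in the sources used here, although the submitters' processing notes name limma.

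Signals were corrected with normexp (offset 50), loess-normalised within arrays, and averaged over spots of one 60-mer, leaving out outlier spots. The 60-mer of highest mean intensity stood for each gene. Mouse values and a common dye effect came from least squares over 12 arrays. DEHP minus vehicle was tested with limma (lmFit, eBayes) on 5 mouse values and contrasts between mice on 12 arrays, each adjusted by Benjamini-Hochberg over 15826 genes at 0.05. The number of arrays limits the precision. R 4.3.3 and limma 3.58.1 were used, and the code was tested on simulated data. The series' design text calls the mice biological replicates, and p-values between groups assume separate animals.

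Other names came through RefSeq accessions (10546 genes), current symbols (1895), older symbols (971) or stayed as filed (2415). Named are all members in role groups, the 5 highest and 5 lowest differences between groups, members without overlap, the 3 highest and 3 lowest of each contrast between mice, members whose 60-mers lie over 0.5 apart, and 3 genes of lowest p from other lists; some genes that this rule names are not reported here, though they count in all totals. Members, lists and rules were chosen with earlier results of these data known; the contrast of vehicle mice 2 and 4, the pairs of 60-mers and the sequence searches were added after their values could be seen.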

Additional observations from a re-analysis of the deposited data

How the results depend on the processing

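DEHP minus vehicle gave 0 members called under the alternatives run except with the 12 arrays as independent samples, which called 59 and counts each mouse several times. Its median and its number of genes below 0 ran from -0.40 to 0.13 and from 14 to 64 when 1 mouse was left out, the highest median and lowest number without DEHP mouse 4. The median was -0.45 within slide 3, -0.06 with median centring and -0.04 in the deposited value table, where 29 of 49 members lay below 0. With the mouse number as a replicate block the median was -0.19, with 62 genes below 0 and 0 called. Vehicle mouse 2 has no DEHP mouse of its number, so the block nearly repeats the fit without it. That fit also gave a median of -0.19, with 63 genes below 0. Deviations of same-numbered mice from their group means correlated at -0.73 and -0.56, so these mice did not deviate in the same direction. With 2 DEHP mice, whose deviations mirror each other, these are not separate checks. Whether the numbers pair the samples in another way was not tested. Between the DEHP mice, 45 members were called with the scanner's processed signals and 36 in the value table, and the median was 0.33 with median centring. Between the vehicle mice, 32 were called with processed signals, 33 with median centring and 33 in the value table. A dye effect for each slide could not be fitted, since slides 1 and 2 hold 1 orientation each; a shared one for slides 1 and 2 and another for slide 3, chosen after seeing the data, was used.

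Of 593 values of named genes between the DEHP mice under alternatives, 28 turned direction, and of 441 between the vehicle mice 13 did; the cause was not tested. With median centring, the DEHP contrast gave 0.45 for Rpl11, 0.071 for Rpl15, 0.53 for Rpl23, 0.093 for Rpl29, 0.35 for Rpl3, 0.89 for Rpl35a, 0.28 for Rpl36a, 0.85 for Rpl38, 0.090 for Rpl39, 0.44 for Rpl41, 0.34 for Rpl5, 0.21 for Rpl7, 0.40 for Rplp1, 0.19 for Rplp2, 0.11 for Rps10, 0.26 for Rps18, 0.24 for Rps2, 0.26 for Rps24, 0.41 for Rps26, 0.35 for Rps27, 0.31 for Rps27a, 0.85 for Rps28 and 0.059 for Rps3. The all-gene median of that contrast was 0.30, so a value above 0 can still lie below the all-gene median. With median centring the vehicle contrast gave 0.078 for Rpl23, 0.12 for Rplp1, 0.051 for Rps27l and 0.053 for Rps29, beside an all-gene median of -0.095. With processed signals, Rps28 was at 0.0019 between the DEHP mice, and Rpl31 at 0.022 and Rps10 at 0.039 between the vehicle mice. With the mean of a gene's 60-mers, Rps28 was at 0.24 between the DEHP mice, and Rpl22 at -0.46, Rpl29 at 0.049 and Rpl31 at 0.13 between the vehicle mice. In the value table, Rps18 was at 0.20, Rps2 at 0.060 and Rps28 at 0.071 between the DEHP mice, and Rpl22 at -1.20, Rpl7 at 0.23, Rps18 at 0.51 and Rps2 at 0.31 between the vehicle mice. Signal over background limits Rplp0, Rps9 and Rpsa, and, among the paired 60-mers, also Rpl7 (5′), Rpl29 and Rps25 (3′).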
